A study of Homo sapiens with 9 samples.

Results

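Of the 31016 rows in each RNA-seq expression table, 3919 carried a dash in place of a gene name, and these unnamed rows are described here. They were taken by that dash alone and identified by their locus on hg19, so every unnamed row of the table is a member. The 3 classes were kept apart by position and width. The immunoglobulin class held 71 rows inside 3 windows, with 21 rows in the heavy chain window (chromosome 14, 106 to 107.3 Mb), 18 in the kappa window (chromosome 2, 89.1 to 90.3 Mb) and 32 in the lambda window (chromosome 22, 22.3 to 23.3 Mb). Outside the windows, 3800 rows were wider than 400 bp and 48 rows were up to 400 bp wide. A row is a stretch of genome to which fragments were assigned without a gene name. No gene name is given to an unnamed row here, and the window names say only where a row lies.

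The cells were CA46, an established human Burkitt lymphoma B cell line, which is 1 clone of cells and therefore uses 1 set of rearranged immunoglobulin genes. All 4 groups were infected with an shRNA virus for 48 h and spent the last 20 h in the stated medium, with 1 RNA-seq library in each. The groups were Myc shRNA (shMyc) in 10 mM dimethyl succinate (DMS, a cell-permeable ester of succinate), shMyc in PBS, non-targeting control shRNA (NTC) in DMS, and NTC in PBS. With 1 library per group a difference between 2 libraries has no replicate check, and only a limma fit across the 4 libraries carries a test. The comparisons address what Myc depletion does to these transcripts and whether added succinate alters it.

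A B cell builds its antibody genes by joining one variable, sometimes one diversity, and one joining segment to a constant region, separately at the heavy, kappa and lambda loci. The joined gene is transcribed at very high levels in mature B cells, and its segments are often missing from gene annotations built for ordinary transcripts, so an assembler can report it as a locus without a name. In Burkitt lymphoma a translocation brings MYC, a transcription factor of growth genes, under the control of an immunoglobulin locus. Short RNA genes transcribed by RNA polymerase III and divergent transcripts that start at promoters are other known sources of unannotated RNA.

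Most unnamed rows were small, lowly expressed and without a strand. Of the 3919 rows, 3292 (84.0%) stood in the part of the table without a strand, and 3248 (82.9%) stood alone, sharing their span with no other row. A further 395 shared a span with a named row and 276 with other unnamed rows only. The mean FPKM (fragments per kilobase of transcript, scaled to library depth and rescaled between libraries) reached 1 in 498 rows, of which 21 were immunoglobulin rows, 432 other rows over 400 bp and 45 rows up to 400 bp, and it reached 5 in 87 rows. At least 1 library was listed at 0 in 1043 rows. None was at 0 in all 4 libraries, which follows if a row without a gene name enters the table only through its fragments. Chromosome 1 held the most unnamed rows (363), followed by chromosome 2 (327) and chromosome 9 (281).

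Outside the immunoglobulin windows, the unnamed rows crowded just upstream of named rows. Among the 3166 rows over 400 bp that stood alone, 1654 (52.2%) lay within 5 kb of the nearest named row, 1246 between 5 and 50 kb and 266 beyond 50 kb. Of the 1654 near rows 1119 lay upstream, at a median distance of 315 bp, and 535 lay downstream, at a median of 2582 bp. Within 1 kb there were 776 upstream and 130 downstream, and within 500 bp 661 of 756 rows were upstream. Of the 136 near upstream rows that had a strand, 104 lay on the strand opposite to the named row and 32 on the same strand, while the 60 downstream rows were split into 30 and 30.

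**Figure D1:**
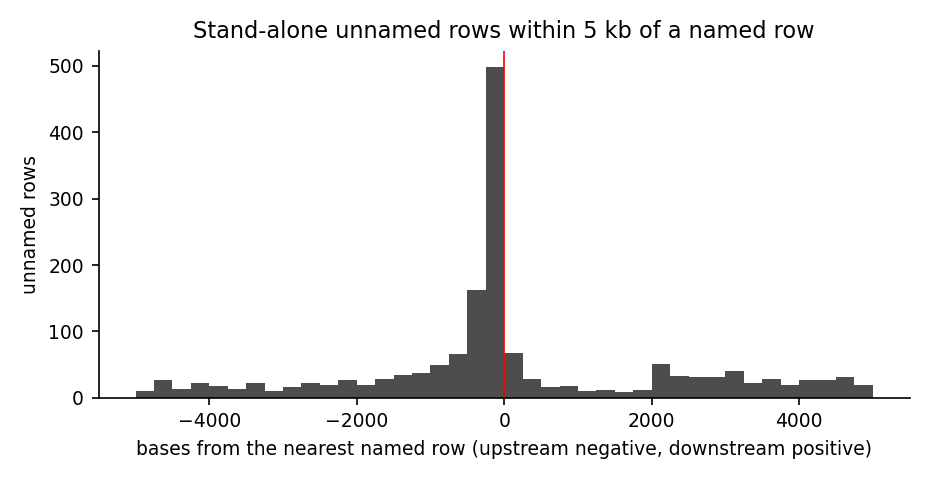
Number of stand-alone unnamed rows over 400 bp outside the immunoglobulin windows by distance in bases from the nearest named row within 5 kb, in bins of 250 bases, with upstream distances negative. Of 756 rows within 500 bases, 661 lie upstream, which is the peak left of the line at 0.

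Because so many rows ended close to a gene start, the promoters of 4 genes beside unnamed rows described below are shown. Each is the 250 bases before the start of the gene in RefSeq (GRCh38.p14), 5′ to 3′ on the strand of the gene, with CG dinucleotides in capitals. SP2 and PCCA are on the plus strand, RPS29 and DVL1 on the minus strand. The unnamed rows ended 330 bp (SP2, a transcription factor), 162 bp (RPS29, a protein of the small ribosomal subunit), 168 bp (DVL1, a Wnt pathway adaptor) and 39 bp (PCCA, a subunit of propionyl-CoA carboxylase) upstream of the named rows.
SP2: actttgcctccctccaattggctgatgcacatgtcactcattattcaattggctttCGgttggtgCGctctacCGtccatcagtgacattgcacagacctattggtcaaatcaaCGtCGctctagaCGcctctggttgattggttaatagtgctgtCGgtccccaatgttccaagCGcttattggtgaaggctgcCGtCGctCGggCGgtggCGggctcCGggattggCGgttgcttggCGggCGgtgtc
RPS29: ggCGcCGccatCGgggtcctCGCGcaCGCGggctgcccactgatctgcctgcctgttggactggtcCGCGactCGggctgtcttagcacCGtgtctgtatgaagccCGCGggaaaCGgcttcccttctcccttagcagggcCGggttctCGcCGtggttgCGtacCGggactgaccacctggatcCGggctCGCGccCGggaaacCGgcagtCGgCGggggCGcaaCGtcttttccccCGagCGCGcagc
DVL1: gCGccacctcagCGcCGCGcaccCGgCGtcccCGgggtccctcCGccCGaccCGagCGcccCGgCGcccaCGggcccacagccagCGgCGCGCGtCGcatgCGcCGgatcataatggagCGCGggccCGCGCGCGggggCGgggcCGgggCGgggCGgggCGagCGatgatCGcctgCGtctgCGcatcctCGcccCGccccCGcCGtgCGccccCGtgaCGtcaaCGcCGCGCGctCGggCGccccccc
PCCA: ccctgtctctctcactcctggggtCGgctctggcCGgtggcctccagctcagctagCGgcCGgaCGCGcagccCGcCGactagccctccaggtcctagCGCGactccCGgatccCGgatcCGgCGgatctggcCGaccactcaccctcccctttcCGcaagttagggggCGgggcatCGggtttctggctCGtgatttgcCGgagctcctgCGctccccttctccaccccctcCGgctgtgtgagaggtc
They hold 17 (SP2), 31 (RPS29), 49 (DVL1) and 22 (PCCA) CG dinucleotides. The median was 24 over 852 RefSeq promoters of genes with an unnamed row within 1 kb upstream (583 of 799 symbols matched), 20 over 12602 promoters of the named rows tested and 11 over all 35116 promoters. The E-box CACGTG, searched on both strands since it is its own complement, occurred in none of the 4 windows shown, in 10.9% of the promoters next to an unnamed row, in 8.51% of those of the named rows tested and in 6.34% of all promoters. The TATA motif TATAAA, searched on both strands, was also in none of the 4, and the 3 shares were 5.75%, 5.54% and 10.7%. These matches describe the letters of the windows only.

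MYC, the target of the shRNA, had 625 (DMS) and 17.0 (PBS) FPKM in shMyc cells and 1654 (DMS) and 1872 (PBS) FPKM in NTC cells, so the shMyc library in DMS kept far more MYC RNA than the shMyc library in PBS, and every comparison of media within shMyc cells below stands beside that difference. All 6 B cell markers had a mean of at least 1 FPKM, and their summed level was 4189 (DMS) and 6384 (PBS) FPKM in shMyc cells and 1496 (DMS) and 2149 (PBS) FPKM in NTC cells. Of 5 T cell markers 3 had a mean of at least 1 FPKM and the sum lay between 8.33 and 9.84 FPKM in every library. Of 4 myeloid markers, LYZ and ITGAM had a mean of at least 1 FPKM and CD14 and CSF1R stayed between 0 and 0.218 FPKM. The myeloid sum was 75.2 (DMS) and 115 (PBS) FPKM in shMyc cells and 7.71 (DMS) and 16.6 (PBS) FPKM in NTC cells, and the 4 erythroid markers were listed at 0. The B cell and myeloid sums move with the immunoglobulin rows described below, and their part in those results was not tested. In bulk RNA, a change in the number of cells of a type and a change in RNA per cell cannot be told apart.

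Unnamed rows took a larger share of the summed FPKM in shMyc cells, and 1 heavy chain row accounted for most of it. They held 22.4% (DMS) and 25.2% (PBS) of the deposited FPKM in shMyc cells and 14.3% (DMS) and 15.7% (PBS) in NTC cells. Immunoglobulin rows alone held 17.6% (DMS) and 21.3% (PBS) in shMyc cells and 9.34% (DMS) and 10.9% (PBS) in NTC cells. Rows up to 400 bp held 4.39% (DMS) and 3.44% (PBS) in shMyc cells and 4.53% (DMS) and 4.51% (PBS) in NTC cells. The 3800 other rows together held between 0.332% and 0.435% in any library. With the highest heavy chain row and the highest short row left out, the share of unnamed rows was 3.29% (DMS) and 3.16% (PBS) in shMyc cells and 2.78% (DMS) and 3.0% (PBS) in NTC cells.

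**Figure D2:**
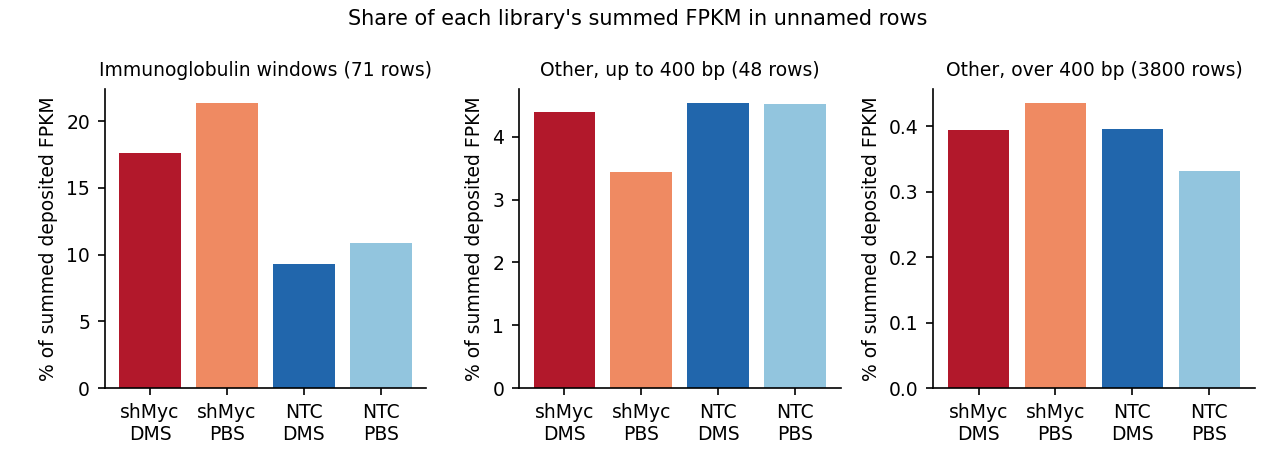
Percent of the summed deposited FPKM of each library held by the 3 classes of unnamed rows, 1 bar per library and with its own vertical scale in each panel. Immunoglobulin rows hold 17.6% and 21.3% in the shMyc libraries and 9.34% and 10.9% in the NTC libraries, while the shares of the other classes differ less.

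The heavy chain window was dominated by a single unnamed row that stood 1.93-fold (DMS) and 2.04-fold (PBS) higher in shMyc than in NTC cells. The row chr14:106725316-107170240, in the minus strand part of the table, had 174585 (DMS) and 220571 (PBS) FPKM in shMyc cells and 90300 (DMS) and 107886 (PBS) FPKM in NTC cells. Both shMyc libraries lay above both NTC libraries, with log2 ratios of 0.95 in DMS and 1.03 in PBS. Across both media the row rose by 0.99 (log2, SE 0.045, limma with Benjamini-Hochberg adjusted p = 0.0014). It held 99.98% of the summed unnamed FPKM of the window in each library. Its locus is a merged span of 445 kb shared by 10 rows, 3 named genes (LINC00221, LINC00226 and MIR7641-2) among them, so the width of the span is not the length of the transcript. In RefSeq, 46 heavy chain variable segments and 73 variable pseudogenes lie between ADAM6 and MIR5195.

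Other rows on the same span and in the same window did not all share this direction. A second unnamed minus strand row of that span had 14.1 (DMS) and 16.8 (PBS) FPKM in shMyc cells and 5.22 (DMS) and 6.56 (PBS) FPKM in NTC cells, and rose by 1.25 (limma adjusted p = 0.0032). A row without a strand there had 1.44 (DMS) and 1.61 (PBS) FPKM in shMyc cells and 0.522 (DMS) and 0.524 (PBS) FPKM in NTC cells, and another without a strand had 0.346 FPKM (DMS) in shMyc cells, where it was listed at 0 in PBS, against 0.385 (DMS) and 0.395 (PBS) FPKM in NTC cells. The first of these lay above and the last below both NTC libraries. No test is given for single rows whose mean in one virus is under 1 FPKM, since they can enter the test only through the other virus. The counts of limma calls below include such rows. The row of MIR4538, a microRNA gene separated from ADAM6 in RefSeq by 6 joining and 27 diversity segments, had 3943 (DMS) and 5282 (PBS) FPKM in shMyc cells and 2200 (DMS) and 2701 (PBS) FPKM in NTC cells. LINC00221, a long non-coding RNA gene, had 112 (DMS) and 134 (PBS) FPKM in shMyc cells and 46.7 (DMS) and 58.1 (PBS) FPKM in NTC cells on the plus strand. Both named rows rose, by 0.90 for MIR4538 (limma adjusted p = 0.0053) and by 1.22 for LINC00221 (limma adjusted p = 0.0067). MIR8071-2, another microRNA gene of the window, had the opposite order, with 0.774 (DMS) and 0.476 (PBS) FPKM in shMyc cells and 1.84 (DMS) and 1.95 (PBS) FPKM in NTC cells.

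A run of 8 stand-alone rows without a strand within 21.4 kb, chr14:106150361-106171788, held neighbours whose levels lay in opposite directions. For rows of this kind over 500 bp the FPKM comes in whole fragments, so the fragment numbers are given with exact Poisson 95% intervals, which cover counting error only. The last row, chr14:106171260-106171788, had 64 (49.3 to 81.7, DMS) and 93 (75.1 to 114, PBS) fragments in shMyc cells and 21 (13.0 to 32.1, DMS) and 7 (2.81 to 14.4, PBS) fragments in NTC cells. It thus lay higher in both shMyc libraries, at 8.81 (DMS) and 12.8 (PBS) FPKM in shMyc cells against 2.55 (DMS) and 0.949 (PBS) FPKM in NTC cells, and rose by 2.15 (SE 0.32, limma adjusted p = 0.0072).
The row before it, chr14:106169721-106170241, had 33 (DMS) and 28 (PBS) fragments in shMyc cells and 10 (DMS) and 7 (PBS) in NTC cells, and rose by 1.33 (limma adjusted p = 0.0032). The next one, chr14:106167680-106169564, had 98 (DMS) and 117 (PBS) fragments in shMyc cells and 25 (DMS) and 19 (PBS) in NTC cells. All 3 of these rows were at least 2-fold higher in both media, as were 9.57% of all rows tested.

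The 2 rows before those had the opposite order. The row chr14:106164818-106167177 had 40 (28.6 to 54.5, DMS) and 15 (8.4 to 24.7, PBS) fragments in shMyc cells and 72 (56.3 to 90.7, DMS) and 69 (53.7 to 87.3, PBS) in NTC cells. Upstream of it in coordinates, chr14:106161412-106164426 had 34 (23.5 to 47.5, DMS) and 23 (14.6 to 34.5, PBS) fragments in shMyc cells and 57 (43.2 to 73.9, DMS) and 77 (60.8 to 96.2, PBS) in NTC cells. Neither reached a mean of 1 FPKM, so neither entered the test, and in both the shMyc library in PBS was lowest. The other 3 rows of the run had between 1 and 14 fragments in every library, and over all 8 rows there were 287 (DMS) and 291 (PBS) fragments in shMyc cells and 212 in either medium in NTC cells. The one immunoglobulin row counted below as fallen lies next to this run, on the plus strand of chr14:106023873-106149511, the span of MIR8071-2. It had 1.20 (DMS) and 0.763 (PBS) FPKM in shMyc cells against 1.93 FPKM in NTC cells in either medium, so it entered the test through the NTC libraries. The fifth of the highest heavy rows, chr14:106283068-106316705, had 0.915 (DMS) and 1.36 (PBS) FPKM in shMyc cells and 1.99 (DMS) and 1.62 (PBS) FPKM in NTC cells, with no call (limma adjusted p = 0.13).

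In the kappa window, too, 1 row held most of the signal, and its difference was smaller than that of the heavy chain row. The minus strand row chr2:89416829-89630105 had 3925 (DMS) and 4585 (PBS) FPKM in shMyc cells and 2999 (DMS) and 2914 (PBS) FPKM in NTC cells. The log2 ratios were 0.39 in DMS and 0.65 in PBS, and the row rose by 0.52 (SE 0.13, limma adjusted p = 0.020). Its share of the unnamed FPKM of the window lay between 92.4% and 93.4%. The ratio of the highest heavy row to the highest kappa row in deposited FPKM was 44.5 (DMS) and 48.1 (PBS) in shMyc cells and 30.1 (DMS) and 37.0 (PBS) in NTC cells. That ratio compares FPKM of rows whose transcript lengths are not given, so it is not a ratio of molecules, and the difference in log2 change between the 2 rows was not tested.

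Another 6 kappa rows had a mean of at least 1 FPKM. On chr2:89136769-89160772, a plus strand row had 261 (DMS) and 298 (PBS) FPKM in shMyc cells and 175 (DMS) and 201 (PBS) FPKM in NTC cells, and a minus strand row had 38.2 (DMS) and 43.8 (PBS) FPKM in shMyc cells and 27.4 (DMS) and 29.0 (PBS) FPKM in NTC cells. Both rose, by 0.57 (limma adjusted p = 0.038) and 0.52 (limma adjusted p = 0.045). Neither was called on the values as deposited (limma adjusted p = 0.076 and 0.090) or with no medium term (limma adjusted p = 0.053 and 0.051). A further row on the span of the highest row had 6.92 (DMS) and 6.73 (PBS) FPKM in shMyc cells and 2.65 (DMS) and 1.72 (PBS) FPKM in NTC cells and rose by 1.31 (limma adjusted p = 0.0041). On the plus strand of chr2:89970774-90046868, 1 row had 1.53 (DMS) and 1.86 (PBS) FPKM in shMyc cells and 0.281 (DMS) and 0.388 (PBS) FPKM in NTC cells. The stand-alone rows at the 2 ends of the window had the other order. At chr2:89131798-89135427 there were 109 (DMS) and 74 (PBS) fragments in shMyc cells and 156 (DMS) and 189 (PBS) in NTC cells. Its mean in shMyc cells is under 1 FPKM, so no test is given for it. At chr2:90259740-90262513 there were 118 (97.7 to 141, DMS) and 84 (67.0 to 104, PBS) fragments in shMyc cells and 168 (144 to 195, DMS) and 130 (109 to 154, PBS) in NTC cells, with no call (limma adjusted p = 0.19).

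The lambda window had far lower unnamed levels, and its highest row had the largest limma change among the highest rows of the 3 windows. The plus strand row chr22:22618023-22776786, whose span holds the pseudogene BMS1P20, had 25.2 (DMS) and 33.9 (PBS) FPKM in shMyc cells and 7.43 (DMS) and 8.49 (PBS) FPKM in NTC cells. This row rose by 1.76 (SE 0.16, limma adjusted p = 0.0019). The row chr22:22437830-22455561 on the plus strand had 3.3 (DMS) and 5.43 (PBS) FPKM in shMyc cells and 0.533 (DMS) and 0.786 (PBS) FPKM in NTC cells. The row chr22:22549381-22553998 had 4.36 (DMS) and 3.60 (PBS) FPKM in shMyc cells and 3.29 (DMS) and 1.91 (PBS) FPKM in NTC cells, close enough that the adjusted p was 0.046 by limma. Beside it, chr22:22554108-22554652 had 20 (DMS) and 22 (PBS) fragments in shMyc cells and 16 (DMS) and 11 (PBS) in NTC cells, with Poisson intervals that overlap within each medium (limma adjusted p = 0.047). Neither of these 2 calls held on the values as deposited (limma adjusted p = 0.080 and 0.076), at a pseudocount of 0.1 FPKM (0.054 and 0.058 by limma) or with no medium term (0.14 and 0.057 by limma). The row on the minus strand of chr22:22345343-22398311 had 2.30 (DMS) and 2.68 (PBS) FPKM in shMyc cells and 1.64 (DMS) and 1.75 (PBS) FPKM in NTC cells (limma adjusted p = 0.089).

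Of the named genes of the lambda window, IGLL5 stood far above the highest unnamed row, while other named rows lay closer to it or below it. IGLL5, a lambda-like gene that RefSeq separates from VPREB1 by a stretch with 31 variable segments, had 1193 (DMS) and 1545 (PBS) FPKM in shMyc cells and 810 (DMS) and 978 (PBS) FPKM in NTC cells on the plus strand, and rose by 0.61 (limma adjusted p = 0.019). VPREB1, a surrogate light chain gene, had 46.9 (DMS) and 70.1 (PBS) FPKM in shMyc cells and 15.5 (DMS) and 23.6 (PBS) FPKM in NTC cells, and rose by 1.54 (limma adjusted p = 0.0030). TOP3B, a topoisomerase gene in the same window that is no immunoglobulin gene, lay between 18.5 and 19.8 FPKM in all 4 libraries.

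**Figure D3:**
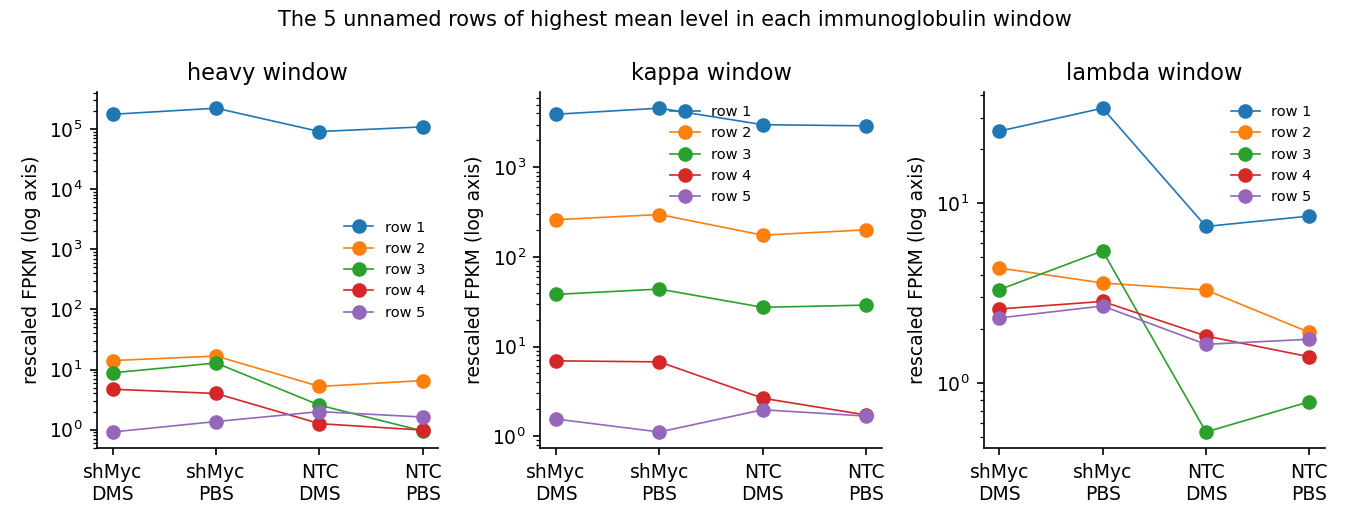
Rescaled FPKM (log axis) of the 5 unnamed rows of highest mean level in each immunoglobulin window, 1 point per library, lines joining the points of a row. The highest heavy row has 174585 and 220571 FPKM in the shMyc libraries against 90300 and 107886 FPKM in the NTC libraries, and the highest row of each window lies above both NTC libraries in both shMyc libraries.

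Counted over the 3 windows, 21 of 71 unnamed rows had a mean of at least 1 FPKM and entered the comparisons. In DMS 7 of these were at least 2-fold higher and 0 lower in shMyc cells, against 10% higher and 3.72% lower over all 11802 rows tested. In PBS 9 were higher and 0 lower, against 14.9% and 17%. Their median log2 ratio of shMyc over NTC was 0.57 in DMS and 0.68 in PBS, where the median of all rows tested was -0.0016 and 0.0081. By limma, 15 of the 21 rose and 1 fell (adjusted p under 0.05, Benjamini-Hochberg), where 27.2% of all rows tested rose and 26.7% fell. The filter is on the mean of the 4 libraries, so a row high in 1 group passes more easily, and these counts are a description. In a split made after the values were seen, 4 of the 21 rows had a mean under 1 FPKM in NTC cells and 3 in shMyc cells. Of the 14 with both means at 1 FPKM or more 11 rose and 0 fell. The share of all rows under this split was not counted, and the 27.2% and 26.7% do not apply to it. Leaving out the NTC library in PBS or the one in DMS leaves 1 NTC library. The calls then did not hold, and nearly all calls among named rows were lost too. The log2 change of the highest heavy row was 1.12 without the NTC library in PBS and 0.86 without the one in DMS. Without a filter on low values limma called 0 of 20883 rows, named rows included, against 6371 of 11802 with it. The 50 rows below 1 FPKM had means between 4.3e-05 and 0.983 FPKM. In PBS 22 of 26 such lambda rows, 6 of 11 kappa rows and 5 of 13 heavy rows lay above 0 in log2 ratio, and in DMS 18 of 26, 8 of 11 and 5 of 13.

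The genes around immunoglobulin transcription and the B cell receptor, a list of 27 chosen with earlier results of these data known, gave a mixed picture. All 27 were found and 25 had a mean of at least 1 FPKM, of which 16 rose and 3 fell by limma, beside the 27.2% and 26.7% of all rows. The median log2 ratio was 0.78 in DMS and 0.72 in PBS. CD79B, a signalling chain of the B cell receptor, had 1694 (DMS) and 2443 (PBS) FPKM in shMyc cells and 510 (DMS) and 666 (PBS) FPKM in NTC cells (limma log2 change 1.80, adjusted p = 0.0017), although its row is joined with CSH1. POU2AF1, a coactivator at immunoglobulin promoters, rose by 1.21 (limma adjusted p = 0.0077) and its partner POU2F2 by 1.41 (limma adjusted p = 0.0059).
The 3 that fell were XBP1 and MZB1, a regulator and a chaperone of antibody secretion, and IGLL1, the other surrogate light chain gene. XBP1 had 56.4 (DMS) and 25.3 (PBS) FPKM in shMyc cells and 106 (DMS) and 85.4 (PBS) FPKM in NTC cells (-1.30, limma adjusted p = 0.011). MZB1 had 233 (DMS) and 130 (PBS) FPKM in shMyc cells and 384 (DMS) and 317 (PBS) FPKM in NTC cells (-1.0, limma adjusted p = 0.013). The immunoglobulin J chain gene (IGJ, now JCHAIN) had 653 (DMS) and 467 (PBS) FPKM in shMyc cells and 568 (DMS) and 622 (PBS) FPKM in NTC cells, so its groups overlapped and it was not called (limma adjusted p = 0.68).

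On the scale of log2(FPKM + 1), no immunoglobulin row that entered the comparisons differed by 2-fold between DMS and PBS. The added 1 FPKM bears on this: chr14:106171260-106171788, given above with 21 (DMS) and 7 (PBS) fragments in NTC cells, was past 2-fold higher in DMS with a pseudocount of 0.1 FPKM, the 1 row to be so. In the comparison of DMS with PBS within shMyc cells, 0 of 21 rows were higher and 0 lower, against 5% and 0.585% of all rows tested. Within NTC cells the counts were again 0 and 0, against 0.178% and 0.458%. The highest heavy row had log2 ratios of DMS over PBS of -0.34 in shMyc cells and -0.26 in NTC cells, and the highest kappa row -0.22 and 0.04. By limma the medium term called 0% of the 11802 rows with adjusted p under 0.05, the lowest adjusted p being 0.25, while at an unadjusted p under 0.05 it gave 1 of 21 immunoglobulin rows, 56 of 432 other rows and 1370 of all rows.

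Of the 3800 other unnamed rows over 400 bp, 432 had a mean of at least 1 FPKM. In DMS 77 were at least 2-fold higher and 24 lower in shMyc cells, and in PBS 105 were higher and 75 lower, to be read against the 10%, 3.72%, 14.9% and 17% of all rows given above. The median log2 ratio was 0.08 in DMS and 0.24 in PBS. By limma 144 rose and 97 fell, where 27.2% and 26.7% of all rows tested did. By the same split 128 of the 432 rows had a mean under 1 FPKM in NTC cells and 60 in shMyc cells. Of the 244 with both means at 1 FPKM or more 46 rose and 53 fell, again without a share of all rows under this split. Of the 107 rows that shared a span with another row 41 rose and 17 fell, and of the 325 that stood alone 103 rose and 80 fell. In both media 60 rows were at least 2-fold higher and 13 lower, against 9.57% and 3.55% of all rows tested. The ratios span from -2.54 to 5.23 in DMS and from -3.09 to 5.49 in PBS.

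**Figure D4:**
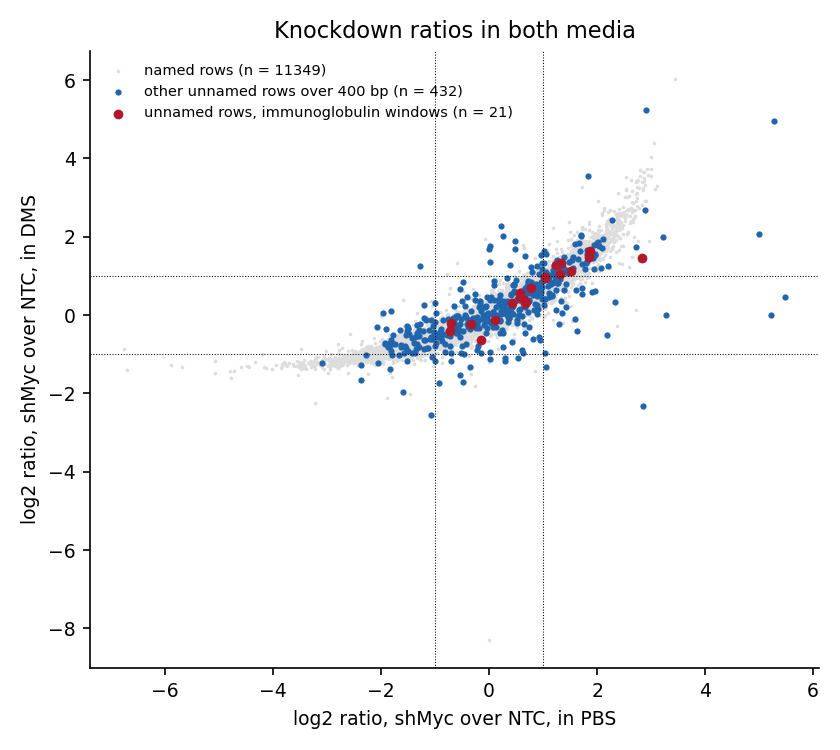
Log2 ratio of shMyc over NTC in DMS (vertical) against that in PBS (horizontal), 1 point per row with a mean of at least 1 FPKM and dotted lines at 2-fold: 21 immunoglobulin rows, 432 other unnamed rows and 11349 named rows. Of the immunoglobulin rows 7 lie in the upper right corner and none beyond a 2-fold line on the low side, and the other unnamed rows scatter on both sides, 60 of them in the upper right and 13 in the lower left corner.

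The highest of these rows differed between libraries, and none of the first 4 was called by limma. On chr4:49315104-49513170 the plus strand row had 508 (DMS) and 947 (PBS) FPKM in shMyc cells and 944 (DMS) and 621 (PBS) FPKM in NTC cells. The minus strand row of that span had 260 (DMS) and 199 (PBS) FPKM in shMyc cells and 188 (DMS) but 3.45 (PBS) FPKM in NTC cells, so its log2 ratio of 5.49 in PBS rests on 1 low library and the row was not called (limma adjusted p = 0.063). At chr19:56824724-56826224 the values were 289 (DMS) and 173 (PBS) FPKM in shMyc cells and 353 (DMS) and 498 (PBS) FPKM in NTC cells (limma adjusted p = 0.056). The row chrX:40794596-40795087 had 127 (DMS) and 124 (PBS) FPKM in shMyc cells and 175 (DMS) and 77.6 (PBS) FPKM in NTC cells, with overlapping groups.

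Rows beside the promoters shown above behaved differently from each other. The row chr17:45968799-45973185, on the minus strand 330 bp upstream of SP2, had 101 (DMS) and 116 (PBS) FPKM in shMyc cells and 68.5 (DMS) and 52.9 (PBS) FPKM in NTC cells and rose by 0.83 (limma adjusted p = 0.022). Upstream of RPS29, chr14:50053297-50054182 was the deepest of the rows with whole fragments, with 1724 (1644 to 1807, DMS) and 1370 (1298 to 1445, PBS) fragments in shMyc cells and 1682 (1603 to 1764, DMS) and 1477 (1403 to 1554, PBS) in NTC cells. After rescaling it had 94.7 (DMS) and 75.6 (PBS) FPKM in shMyc cells and 82.1 (DMS) and 79.6 (PBS) FPKM in NTC cells and was not called (limma adjusted p = 0.78). The row chr1:1284942-1285376, 168 bp upstream of DVL1, had 4.32 (DMS) and 2.27 (PBS) FPKM in shMyc cells and 9.79 (DMS) and 10.3 (PBS) FPKM in NTC cells and fell by 1.41 (limma adjusted p = 0.0074). On the minus strand 39 bp upstream of PCCA, chr13:100706209-100741229 had 11.6 (DMS) and 2.31 (PBS) FPKM in shMyc cells and 12.5 (DMS) and 4.61 (PBS) FPKM in NTC cells, so it stood higher in DMS in cells of either virus, with log2 ratios of 1.93 in shMyc and 1.26 in NTC cells.

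Other rows among the 10 highest included chr14:50324905-50332069, 5113 bp upstream of NEMF (a ribosome quality control factor), which had 90.9 (DMS) and 64.2 (PBS) FPKM in shMyc cells and 79.0 (DMS) and 70.2 (PBS) FPKM in NTC cells. The row chr11:58345956-58346435, 151 bp upstream of the joint CNTF,ZFP91 row, had 26.7 (DMS) and 28.1 (PBS) FPKM in shMyc cells and 33.0 (DMS) and 26.7 (PBS) FPKM in NTC cells. Neither was called. The row chr9:68413317-68413994, 111 bp downstream of MIR4477A, had 21.5 (DMS) and 35.5 (PBS) FPKM in shMyc cells and 15.2 (DMS) and 15.9 (PBS) FPKM in NTC cells and rose by 0.79 (limma adjusted p = 0.024), a call that ended with no medium term (0.062 by limma). The highest row of chrY:13311503-13319372, a span of 5 rows, had 39.2 (DMS) and 89.2 (PBS) FPKM in shMyc cells and 11.1 (DMS) and 12.6 (PBS) FPKM in NTC cells and rose by 2.23 (limma adjusted p = 0.0038).

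Among rows at least 2-fold higher in shMyc cells in both media, several shared a span with a named gene that also stood higher. On chr6:26124363-26139933, the span of the histone gene HIST1H2AC, a row had 30.2 (DMS) and 37.8 (PBS) FPKM in shMyc cells and was listed at 0 in both NTC libraries. A second row there had 36.4 (DMS) and 6.47 (PBS) FPKM in shMyc cells and was also listed at 0 in NTC cells. HIST1H2AC itself had 90.0 (DMS) and 124 (PBS) FPKM in shMyc cells and 12.9 (DMS) and 20.0 (PBS) FPKM in NTC cells. No fold is given for rows listed at 0.
On chr1:161475205-161578341, with the Fc receptor genes FCGR2A and FCGR2C, a row had 29.4 (DMS) and 31.1 (PBS) FPKM in shMyc cells and 6.27 (DMS) FPKM in NTC cells, and was listed at 0 in NTC cells in PBS. FCGR2C had 94.3 (DMS) and 122 (PBS) FPKM in shMyc cells and 15.6 (DMS) and 22 (PBS) FPKM in NTC cells. On chr19:35939136-35943220, the span of the fatty acid receptor gene FFAR2, the unnamed row had 6.88 (DMS) and 13.6 (PBS) FPKM in shMyc cells and 0.995 (DMS) and 0.574 (PBS) FPKM in NTC cells, and FFAR2 had 7.05 (DMS) and 13.9 (PBS) FPKM in shMyc cells and 1.61 (DMS) and 2.16 (PBS) FPKM in NTC cells.

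Other rows higher in both media had no named gene on their span. The row chr15:22448263-22448687, 33867 bp downstream of the olfactory receptor pseudogene OR4N3P, had 12.2 (DMS) and 9.98 (PBS) FPKM in shMyc cells and 1.07 (DMS) and 0.483 (PBS) FPKM in NTC cells. The row chr17:38673201-38683304 had 7.91 (DMS) and 15.3 (PBS) FPKM in shMyc cells and 0.668 (DMS) and 2.36 (PBS) FPKM in NTC cells and rose by 2.35 (limma adjusted p = 0.0014). On the minus strand of chr1:247350532-247363078, 312 bp downstream of MIR3916, there were 20.6 (DMS) and 31.1 (PBS) FPKM in shMyc cells and 5.01 (DMS) and 7.01 (PBS) FPKM in NTC cells, a rise of 1.92 (limma adjusted p = 0.0016). In each of these 3 rows both shMyc libraries lay above both NTC libraries, which their choice as higher in both media made likely beforehand.

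Of the 54 other unnamed rows over 400 bp whose mean reached 5 FPKM, 5 were at least 2-fold lower in both media, the DVL1 row among them. The share of all rows at that mean was not counted, and at a mean of at least 1 FPKM it was 3.55%. In all 5 rows the shMyc library in PBS was lowest. Their choice left only the shMyc libraries to be lowest. Over all rows tested, 17% were at least 2-fold lower in shMyc cells in PBS against 3.72% in DMS, so a larger fall in PBS is not particular to them. On the minus strand 37 bp upstream of TBC1D22A, a gene of the TBC domain family, chr22:47157796-47158476 had 7.97 (DMS) and 3.70 (PBS) FPKM in shMyc cells and 20.5 (DMS) and 23.4 (PBS) FPKM in NTC cells and fell by 1.82 (limma adjusted p = 0.0074). The row chr2:10260569-10261079, 1615 bp upstream of RRM2 (a subunit of ribonucleotide reductase), had 22 (13.8 to 33.3, DMS) and 10 (4.80 to 18.4, PBS) fragments in shMyc cells and 69 (53.7 to 87.3, DMS) and 64 (49.3 to 81.7, PBS) in NTC cells and fell by 1.65 (limma adjusted p = 0.0055). The row chr17:42015587-42017588, 583 bp downstream of PPY (the pancreatic polypeptide gene), had 5.20 (DMS) and 0.361 (PBS) FPKM in shMyc cells and 13.5 (DMS) and 10.6 (PBS) FPKM in NTC cells and fell by 2.16 (limma adjusted p = 0.011), with no call in a fit without the medium term (0.063 by limma). The row chr4:71544443-71552515 had 3.51 (DMS) and 1.64 (PBS) FPKM in shMyc cells and 10.7 (DMS) and 8.45 (PBS) FPKM in NTC cells and fell by 1.61 (limma adjusted p = 0.0027). MYC was also lowest in shMyc cells in PBS, and its part in these rows was not tested.

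Between media, 28 of the 432 other rows were at least 2-fold higher and 17 lower in DMS than in PBS within shMyc cells, against 5% and 0.585% of all rows tested. Within NTC cells 11 were higher and 7 lower, against 0.178% and 0.458%. The rows that share a span gave 8 of the 17 lower calls in shMyc cells. The extreme cases rest on 1 library: the row on chr4:6660759-6678035, with LOC93622, had 36.3 FPKM in shMyc cells in PBS and was listed at 0 in the other 3 libraries. The row on chr10:21823101-22044856, with the chromatin gene MLLT10, was listed at 0 in shMyc cells in DMS and had 22.7 FPKM in shMyc cells in PBS, beside 3.97 (DMS) and 2.31 (PBS) FPKM in NTC cells. A second row of the chrY span had 12.3 (DMS) and 34.5 (PBS) FPKM in shMyc cells and 16.6 (DMS) and 10.6 (PBS) FPKM in NTC cells.

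Log2 ratios of stand-alone rows correlated positively with those of their nearest named row at every distance, not only near a gene. Over 177 stand-alone rows within 5 kb of a named row, both with a mean of at least 1 FPKM, the log2 ratio of shMyc over NTC had a Pearson correlation with that of the neighbour of 0.48 in DMS and 0.46 in PBS, and 118 (DMS) and 119 (PBS) of the pairs had the same sign. Between 5 and 50 kb it was 0.28 in DMS and 0.32 in PBS over 70 pairs, with 43 (DMS) and 40 (PBS) of the same sign. Beyond 50 kb it was 0.45 in DMS and 0.67 in PBS over 15 pairs, with 10 (DMS) and 13 (PBS) of the same sign. Over 50 pairs on a shared span it was 0.69 in DMS and 0.37 in PBS, with 32 (DMS) and 26 (PBS) of the same sign. The 2 members of a pair come from the same libraries and both correlations from shared control libraries, and rows are not replicates, so these are descriptions without a test.

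The 48 rows up to 400 bp had high and unsteady FPKM. The median of the mean FPKM was 2202 over 14 rows up to 200 bp, 37.6 over 7 rows of 200 to 300 bp and 2.38 over 27 rows of 300 to 400 bp, and it was 0.876 over 81 stand-alone rows of 400 to 500 bp. In the rows over 500 bp with whole fragments, between 290 and 294 bp had to be taken off the width for the fragment numbers to come out whole, and rows around or under that width have no usable length left. In 20 of the 48 rows at least 1 library was listed at 0, and the median ratio of the highest to the lowest library was 3.99, 4.68 and 4.99 in the 3 width bins. No more than 2 rows shared a width, which 5 widths did (164, 167, 174, 320 and 331 bp).

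**Figure D5:**
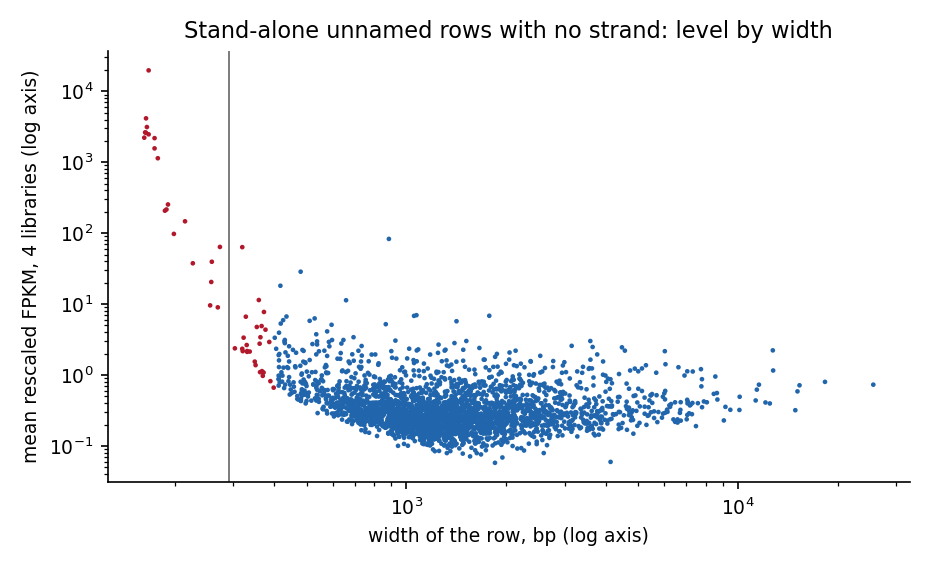
Mean rescaled FPKM over the 4 libraries (log axis) against row width in bp (log axis) for stand-alone unnamed rows without a strand, with rows up to 400 bp in red and a line at the width taken off to recover whole fragments. The 14 rows up to 200 bp have a median of 2202 FPKM and the 27 rows of 300 to 400 bp a median of 2.38 FPKM.

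The highest short row, chr7:27498328-27498494, had 19486 (DMS) and 12579 (PBS) FPKM in shMyc cells and 24792 (DMS) and 22019 (PBS) FPKM in NTC cells, lower in both shMyc libraries but under 2-fold. The row chr2:172373731-172373894 had 4239 (DMS) and 5224 (PBS) FPKM in shMyc cells and 3429 (DMS) and 3734 (PBS) FPKM in NTC cells. At chr6:74082633-74082797 the values were 3744 (DMS) and 3956 (PBS) FPKM in shMyc cells and 3031 (DMS) and 1802 (PBS) FPKM in NTC cells. Of these 3 rows the first was lower and the others higher in shMyc cells in both media, a description of values only.
The row chr10:122114158-122114320 was lower in DMS in cells of either virus, with 1318 (DMS) and 4680 (PBS) FPKM in shMyc cells and 1066 (DMS) and 3479 (PBS) FPKM in NTC cells. The row chr13:55014797-55014960 had a different order in each virus, with 4624 (DMS) and 1119 (PBS) FPKM in shMyc cells and 1247 (DMS) and 3395 (PBS) FPKM in NTC cells. Rows up to 400 bp were not tested, and 12 higher and 10 lower (DMS) and 20 higher and 11 lower (PBS) of the 45 above 1 FPKM passed 2-fold between shMyc and NTC cells. Over the 11802 rows tested 10% were higher and 3.72% lower (DMS) and 14.9% higher and 17% lower (PBS). That set holds only rows over 400 bp, so it is no like-for-like background for these unsteady rows.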

How the data were processed

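RNA-seq was analysed in 4 CA46 libraries, and the 4 ChIP-seq samples and 1 input sample of the series were not analysed here. The authors deposited 1 table of FPKM values per library (gene, hg19 locus, value), with no counts and no depth. Per the submitters' processing notes the tools were bcl2fastq, fastp, Bowtie2 2.2.6, TopHat2 2.1.0, Cuffdiff 2.2.1 and MACS 1.4.2. The annotation, the strand setting and the scaling between libraries are not stated there or in the labels. The unit was read from the values, which are fractional in Cuffdiff's column format. Loci are given counted from 1.

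The members and gene lists were chosen with earlier results of these data known. Named rows were the 5 highest of each immunoglobulin window, the 10 highest other rows, up to 8 rows higher and 8 lower in both media and 3 at either end of each DMS comparison among rows with a mean of at least 5 FPKM, the 5 highest short rows, and named rows above 1 FPKM in a window. Further rows of the heavy and kappa windows and named genes on shared spans were added after their values were seen.

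The locus column gives merged spans (24681 distinct, none overlapping another in part), so a span is not a transcript length: read as a length, the highest heavy row alone would need 50.4 times as many fragments as its library holds. Within a chromosome the rows come in 3 runs. Of 11764 named rows with a RefSeq strand 98.2% stood in the run of their own strand, and the third run held 3292 unnamed and 30 named rows, so strands here are read from row order. For stand-alone rows of the third run over 500 bp, FPKM times the width less 290 to 294 bp gave whole fragments (within 0.05, in 100% of 1492 to 1667 values per library up to 15 fragments), at 29.9 to 33.2 fragments per kb and FPKM. These 2697 rows held 58056 (DMS) and 61739 (PBS) fragments in shMyc cells and 52757 (DMS) and 48478 (PBS) in NTC cells, with medians of 8 to 11 per row. Other rows have no known depth.

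Libraries were brought to one scale with the trimmed mean of their log2 ratios over named rows (30% of ratios and 5% of levels trimmed; factors 1.04 and 1.05 for shMyc in DMS and PBS, 0.966 and 0.953 for NTC). Log2 ratios use FPKM + 1, which understates changes of low rows. The 11802 rows over 400 bp averaging 1 FPKM or more were fitted with limma 3.58.1 (R 4.3.3) with trend and additive virus and medium terms, with 1 residual and 4.53 prior degrees of freedom, and Benjamini-Hochberg adjustment at 0.05. The labels name no separate cultures. With 1 library per group, the residual is how far the virus difference changes between media, combined with a spread borrowed from other rows. The p-values therefore hold no spread between replicate libraries or cultures. Tested on simulated data for the virus comparison (11802 rows), the fit recovered 90.3% of 93 rows changed by 1 log2 unit and 100% of 107 changed by 2, with 9.91% of calls false, above the 0.05 set. The simulation changed few rows, by the same amount in both media and with no medium effect. In the data 27.2% of rows rose and 26.7% fell, and MYC differed by medium in shMyc cells, so these rates need not hold for them. Joint rows were matched by each of their symbols (BTK and CD79B), and IGJ through its RefSeq synonym. The values of 1 list member are not reported here. Promoters came from RefSeq GRCh38.p14, with no coordinates taken from it. Python 3.11.15, numpy 2.4.6 and pandas 2.3.3 were used.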

Additional observations from a re-analysis of the deposited data

Results flagged for a closer look

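The unnamed rows on chromosomes 10 and 13 below had log2 ratios past 2-fold in opposite directions in comparisons of the same kind, which set them apart. With 1 library per group the difference was not tested. The row on chr10:21823101-22044856, on the span of MLLT10, had a log2 ratio of shMyc over NTC of -2.31 in DMS and 2.84 in PBS, the value in DMS resting on a library listed at 0. The row chr13:55014797-55014960, 164 bp wide, had a ratio of shMyc over NTC of 1.89 in DMS and -1.60 in PBS, and a ratio of DMS over PBS of 2.05 in shMyc cells and -1.44 in NTC cells.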

How the results depend on the processing

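With the values as deposited, with median-of-ratios scaling and with rows of every width fitted together, all counts of calls stayed within 1.5 times those given. The immunoglobulin rows that rose by limma were at that limit, with 10 on the values as deposited against 15. Of the other rows 126 then rose and 108 fell. No called result changed direction in these settings. Uncalled values near 0 did: on the values as deposited the limma change turned to -0.016 for chrX:40794596-40795087, -0.052 for chr14:50053297-50054182 and -0.081 for chr14:50324905-50332069, and that of chr10:21823101-22044856 to -1.05 at a pseudocount of 0.1 FPKM and, past the threshold, to -2.02 without the shMyc library in PBS. Most calls lost for single rows in fits of all 4 libraries stand beside them in the report. The call for chr22:22554108-22554652 also ended with median-of-ratios scaling (limma adjusted p = 0.0503). It ended as well with rows of every width fitted together (limma adjusted p = 0.0506). The limma calls between viruses depended on the filter and on the NTC libraries. Without a filter limma called 0 immunoglobulin and 0 other rows (1683 unnamed rows at an unadjusted p under 0.05). With a library left out and no medium term, 0 to 14 immunoglobulin rows rose and 0 to 1 fell, and 0 to 149 other rows rose and 0 to 125 fell, with 0 in all 4 counts without the NTC library in PBS (166 unnamed rows at an unadjusted p under 0.05) or in DMS (163). Without the shMyc library in PBS 0 immunoglobulin and 58 other rows fell. In the fit with no medium term 0 immunoglobulin rows and 57 other rows fell, and with a pseudocount of 0.1 FPKM 0 immunoglobulin rows fell. With a mean of at least 5 FPKM 7 immunoglobulin and 22 other rows rose, and 0 and 11 fell. With a mean of at least 1 FPKM in each virus, a split chosen after seeing the data, 11 of 14 immunoglobulin rows rose and 0 fell, and 46 of 244 other rows rose and 53 fell. The share of all rows under that split was not counted. The cause was not tested beyond these numbers of rows and samples.

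Counts past 2-fold moved as follows, in the order immunoglobulin higher, immunoglobulin lower, other higher, other lower where given. At a pseudocount of 0.1 FPKM, shMyc over NTC gave 1 lower, 126 higher and 64 lower in DMS and 2 lower and 158 higher in PBS, and DMS over PBS gave 75 higher and 29 lower in shMyc cells and 1 higher, 36 higher and 40 lower in NTC cells. With no filter, other rows were 120 higher and 41 lower in DMS and 240 higher and 154 lower in PBS (shMyc over NTC), and 49 higher and 68 lower in shMyc cells and 24 higher and 22 lower in NTC cells (DMS over PBS), so that lower rows outnumbered higher ones in shMyc cells. At a mean of at least 5 FPKM, shMyc over NTC gave 3, 13 and 6 in DMS (immunoglobulin higher, other higher, other lower) and 4, 23 and 10 in PBS, and DMS over PBS gave 5 higher and 4 lower in shMyc cells and 4 higher and 1 lower in NTC cells. At 1.5-fold, shMyc over NTC gave 1 lower immunoglobulin row, 131 higher and 76 lower other rows in DMS and 2, 165 and 117 in PBS, and DMS over PBS gave 74 higher and 50 lower other rows in shMyc cells and 1 higher immunoglobulin row, 45 higher and 26 lower other rows in NTC cells. With DMS over PBS in NTC cells, a width boundary of 300 bp gave 18 higher other rows, and one of 600 bp gave 7 higher and 4 lower.

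The width boundary also moved the shares of FPKM. At 300 bp other rows held 0.411% (DMS) and 0.458% (PBS) in shMyc cells and 0.413% (DMS) and 0.355% (PBS) in NTC cells, and short rows 4.37% (DMS) and 3.41% (PBS) in shMyc cells and 4.51% (DMS) and 4.49% (PBS) in NTC cells. At 600 bp other rows held 0.359% (DMS) and 0.399% (PBS) in shMyc cells and 0.354% (DMS) and 0.304% (PBS) in NTC cells, and short rows 4.43% (DMS) and 3.47% (PBS) in shMyc cells and 4.57% (DMS) and 4.54% (PBS) in NTC cells.

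No paired analysis was possible because each group has 1 library and the replicate numbers pair nothing, although the medium term compares the viruses within each medium and the fit with no medium term is given above. The planned shares of FPKM times span were not run, since a span is not a transcript length. Depth limits rows near 1 FPKM: the median stand-alone row had 8 to 11 fragments per library.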
